A study of Homo sapiens with 4 samples.

Results

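NORAD and OIP5-AS1, 2 long noncoding RNAs (lncRNAs) that act in the cytoplasm by binding proteins and microRNAs, were followed through an lncRNA expression table that held 46902 lncRNA genes. They were found by name: NORAD, whose older name is LINC00657, had 2 isoform rows, and OIP5-AS1 had 22. RNA was sequenced in 2 libraries from MDA-MB-231, a widely used human line of triple-negative breast cancer, and in 2 libraries from its subline MDA-MB-231-P3. The subline came from 3 rounds in which cells were injected into mouse tail veins, taken from the lung tumours that formed and expanded in culture. Both groups were cultured cells with no added treatment given in the labels, and the labels did not say whether the subline was a single clone or whether the 2 libraries of a line were separate cultures. The p-values below therefore reflect nothing beyond the spread of these 4 libraries, and that spread may be technical. Values are FPKM, fragments scaled by transcript length and by the mapped total of the library. This scaling is meant to allow comparison between genes, but overlapping genes or shared sequence can still distort a value. The read depth behind the values is unknown. The table was of lncRNAs, so protein-coding markers of the cell line were not analysed here.

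NORAD is an abundant, unspliced lncRNA that is induced by DNA damage and is needed for stable chromosome numbers. Proteins of the Pumilio family recognise a short motif in target mRNAs and promote their decay, and NORAD, which carries many copies of the motif, binds such proteins. OIP5-AS1, also called Cyrano, is a spliced lncRNA transcribed from the strand opposite to the gene OIP5. It carries a site of near-complete complementarity to the microRNA miR-7, whose destruction it promotes, and it has been described to bind the RNA-stabilising protein HuR.

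The sequences behind these roles were read from the annotated transcripts. NORAD (ENSG00000260032) runs from 34633540 to 34638940 on chromosome 20 (GRCh37, the sequence of hg19, minus strand) and is annotated with 1 transcript of 1 exon and 5401 nt. The Pumilio motif TGTANATA, where N is any base, was searched on the transcript strand alone and matched NORAD at 15 positions, which began between 819 and 4657 nt from its 5′ end. Of these 15, 10 read TGTATATA, 4 read TGTAAATA and 1 read TGTACATA. These matches represent each of the 3 forms, a pair whose starts lie 9 nt apart and the single match of OIP5-AS1, with the motif in capitals and 8 flanking bases on each side.
NORAD match 2, chr20:34637728-34637751, minus strand: cactactgTGTATATAgttgacaa
NORAD match 3, chr20:34637627-34637650, minus strand: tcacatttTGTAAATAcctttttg
NORAD match 4, chr20:34637426-34637449, minus strand: cttatctgTGTATATAgtgtacat
NORAD match 5, chr20:34637417-34637440, minus strand: gtatatagTGTACATAaaggacag
OIP5-AS1 match 1, chr15:41598673-41598696, plus strand: tgcacctgTGTATATAtatatttt

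Across the longest annotated transcript of each of 18636 lncRNA genes, 11.5% held at least 1 match and NORAD ranked 6 by number of matches. Of the 357 genes whose longest transcript was at least as long as NORAD, the median was 1 match, and 5 genes, NORAD among them, had 15 or more. OIP5-AS1 had 1 match in its longest transcript of 8881 nt, equal to the median of the 71 genes at least as long. A match is a description of the letters and is not a measured binding site.

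OIP5-AS1 (ENSG00000247556) runs from 41576156 to 41614590 on chromosome 15 (GRCh37, plus strand) and is annotated with 72 transcripts. Its locus overlaps OIP5 on the opposite strand, and NUSAP1 and the coding gene ENSG00000285920 on the same strand. The libraries marked strand, per the labels' protocols, but whether the authors' FPKM step used it is not given in the sources used here, so reads of these overlapping genes may not be fully separated. The site closest to a full complement of miR-7 lies in exon 4 of the longest transcript. It follows the microRNA and its full complement, with the seed of the microRNA (bases 2 to 8) and the bases that match it in capitals.
hsa-miR-7-5p: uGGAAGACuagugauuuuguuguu
full complement of miR-7, as DNA: aacaacaaaatcactaGTCTTCCa
OIP5-AS1 site, chr15:41592772-41592797, plus strand: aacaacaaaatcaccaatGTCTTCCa

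This site differed from the full complement by 3 single-base edits, counting substitutions, insertions and deletions. Among the longest transcripts of the 18636 lncRNA genes, 1 gene had a site within 3 edits, and it was OIP5-AS1. The longest OIP5-AS1 transcript had 3 seed matches (GTCTTCC), and 31 of its 72 annotated transcripts had at least 1, while 12 of the 72 held the full site. NORAD had 0 seed matches, and 10.5% of lncRNA genes had at least 1. The isoform rows of the expression table carry numbers that were not matched to annotated transcripts, so which rows contain the site was not tested.

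**Figure D1:**
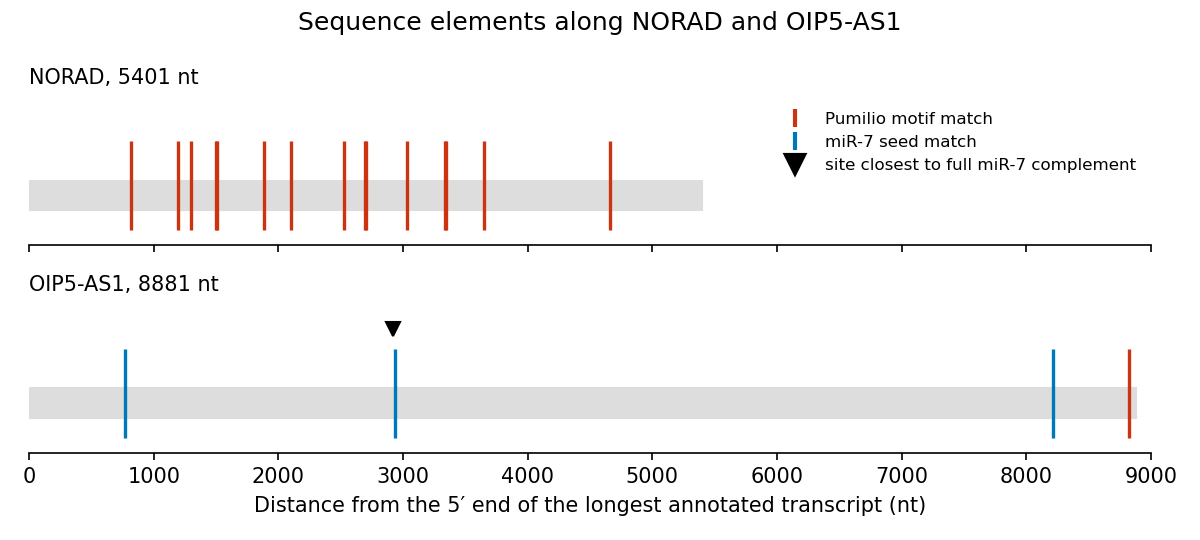
Positions of Pumilio motif matches (red), miR-7 seed matches (blue) and the OIP5-AS1 site closest to the full miR-7 complement (triangle) along the longest annotated transcript of each gene, in nt from the 5′ end. NORAD has 15 Pumilio motif matches and no seed match, and OIP5-AS1 has 1 and 3.

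NORAD, the Pumilio decoy, was the more abundant of the pair and was somewhat higher in the lung-selected subline, without passing the test. Its summed level was 179 and 109 FPKM in the 2 MDA-MB-231 libraries and 213 and 209 FPKM in the 2 MDA-MB-231-P3 libraries. Both subline libraries lay above both parental ones, an order shared by 28.9% of the 6444 tested genes. The parental libraries differed from each other by more than the subline libraries did. The parental mean was 144 ± 49.8 FPKM (SD, n = 2) and that of the subline was 211 ± 2.70 FPKM (SD, n = 2), 1.46 times as high. On the log2(FPKM + 0.5) scale the difference, subline minus parent, was 0.59 (SE 0.35, 95% interval -0.34 to 1.52, limma adjusted p = 0.474). In this test, run over all tested lncRNA genes, 0.0621% of genes passed an adjusted p of 0.05, and NORAD was not among them. With 2 libraries against 2, an exact permutation test of a single gene cannot go below a two-sided p of 0.333. In bulk RNA of this kind, more cells that express a gene and more RNA per cell cannot be told apart.

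The size of the NORAD difference depended on which parental library was used. Without MDA-MB-231 replicate 2, the library with the lowest NORAD value, the difference was 0.23, and without MDA-MB-231 replicate 1 it was 0.95. Between the libraries numbered 1 the log2 difference was 0.24, and between those numbered 2 it was 0.93. The median difference of all 6444 genes was 0.09. When each library was rescaled to a common sum of FPKM, the median of the 9960 genes then tested was 0.47 and the difference of NORAD was 1.00 (limma adjusted p = 0.291), so it exceeded the median by a similar amount under both scalings. The summed FPKM of all rows was 460282 and 500086 in the parental libraries, against 351135 and 372689 in the subline.

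OIP5-AS1, the miR-7-binding lncRNA, had nearly the same mean level in both lines. Its summed level was 34.7 and 22.7 FPKM in the parental libraries, against 37.2 and 21.0 FPKM in the subline libraries. The values of the lines overlapped, and in each line the library numbered 1 was the higher one. The means were 28.7 ± 8.45 FPKM (SD, n = 2) and 29.1 ± 11.5 FPKM (SD, n = 2). The log2 difference was -0.01 (SE 0.42, 95% interval -1.13 to 1.11, limma adjusted p = 0.995), an interval that spans more than a doubling and more than a halving. The sign of this difference changed under other scalings and when single libraries were left out.

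**Figure D2:**
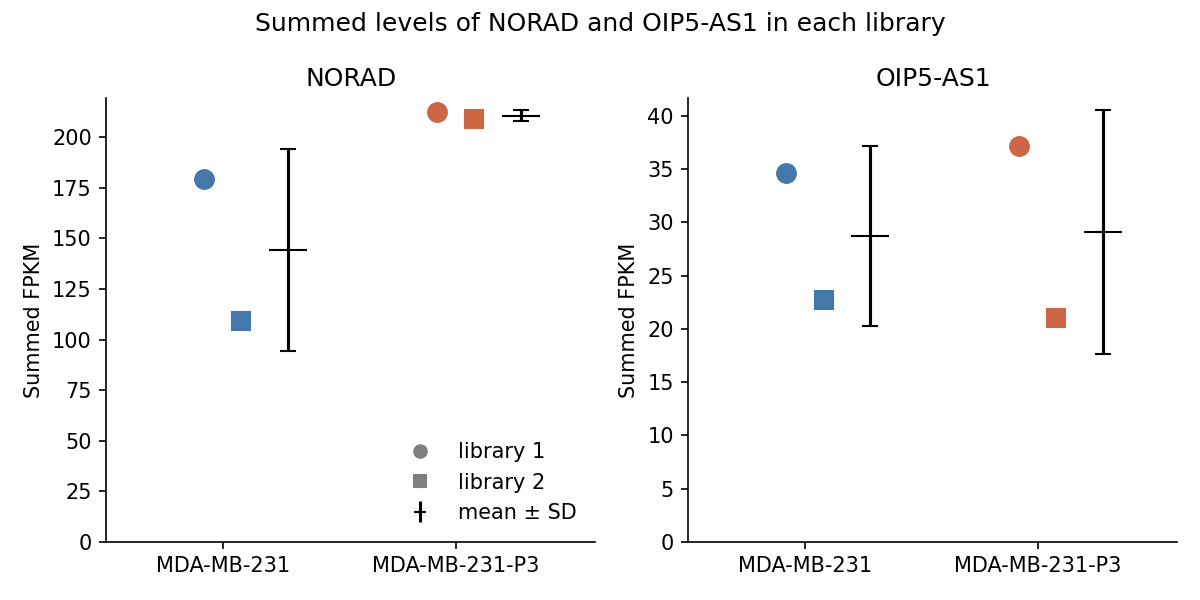
Summed FPKM (y axis, from 0) of NORAD (left) and OIP5-AS1 (right) in each library, with circles for library 1, squares for library 2 and bars for mean ± SD of each line (n = 2). Both MDA-MB-231-P3 values of NORAD, 213 and 209 FPKM, lie above both parental values, while for OIP5-AS1 the lines overlap.

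In every library NORAD was higher than OIP5-AS1. The ratio of their summed FPKM was 5.18 and 4.80 in the parental libraries, against 5.72 and 9.95 in the subline libraries. Both subline ratios lay above both parental ones, and the ratio of the second subline library stood apart from the other 3. The order of the ratios was not tested and was not set beside that of other gene pairs. Among all 46902 lncRNA genes NORAD ranked 79 and 110 in the parental libraries, against 66 and 65 in the subline. OIP5-AS1 ranked 220 and 310 in the parent and 207 and 324 in the subline.

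The spread between libraries of a line was set beside that of other abundant lncRNAs. For the 613 genes with a mean of at least 10 FPKM, the median gap between the 2 parental libraries was 0.44 on the log2 scale, and between the 2 subline libraries it was 0.30. NORAD had a gap of 0.72 in the parent, and 69.5% of these genes had a smaller one. In the subline its gap was 0.03, and 5.87% had a smaller one. OIP5-AS1 had gaps of 0.60 and 0.81, with smaller gaps in 63.8% and 80.8% of the genes.

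**Figure D3:**
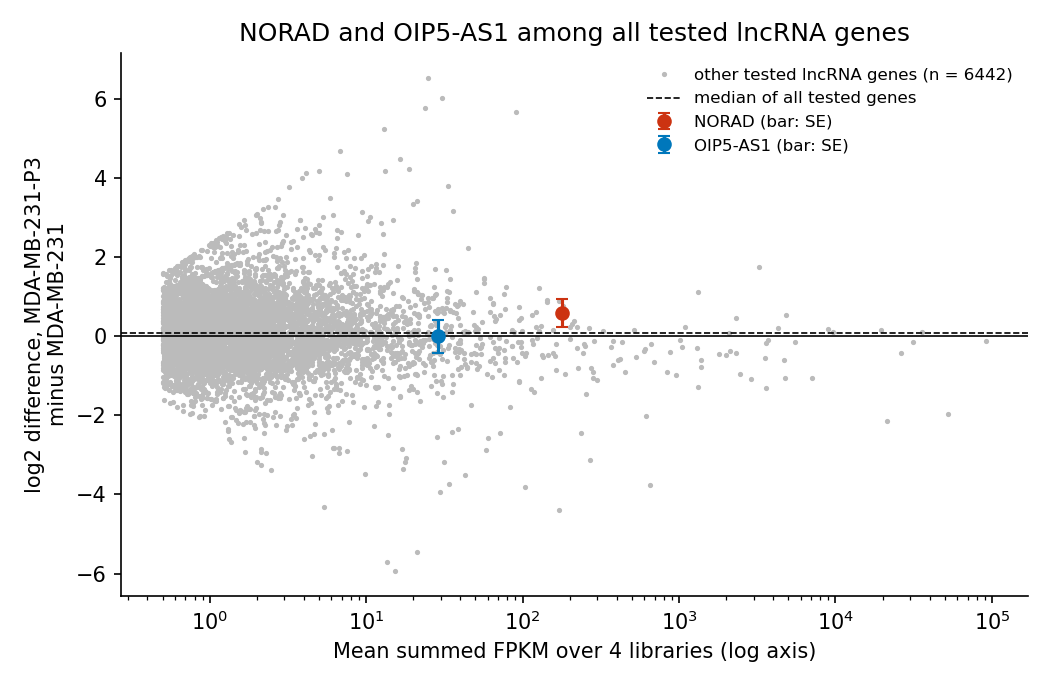
Log2 difference of MDA-MB-231-P3 minus MDA-MB-231 (y axis) against mean summed FPKM (x axis, log scale) for all tested lncRNA genes (grey), with NORAD (red) and OIP5-AS1 (blue) and their standard errors. NORAD, at 0.59, and OIP5-AS1, at -0.01, lie inside the cloud of genes of like level, and the dashed line marks the median of 0.09.

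NORAD consisted almost wholly of 1 isoform row. NORAD:7 had 165 and 103 FPKM in the parental libraries, against 195 and 196 FPKM in the subline libraries. Both subline values of NORAD:7 lay above both parental values, as did those of 27.3% of the 8432 tested isoforms. NORAD:6 had 14.7 and 6.17 FPKM in the parent and 18.1 and 13.0 FPKM in the subline, and its values overlapped. The log2 differences were 0.58 (SE 0.37, limma adjusted p = 0.553) for NORAD:7 and 0.65 (SE 0.52, limma adjusted p = 0.603) for NORAD:6.

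The 2 NORAD isoforms kept nearly the same proportion in every library. NORAD:7 made up 91.8% and 94.3% of the gene in the parental libraries, against 91.5% and 93.8% in the subline libraries. Its mean share differed by -0.44 percentage points between the lines, with a limma adjusted p of 0.989 in the test of shares. That test called 0 of 3675 isoforms (0% of those tested), with 288 at an unadjusted p under 0.05 (3.97% higher and 3.86% lower in the subline). The level test likewise called 0 of 8432 isoforms (0%), with 1124 at an unadjusted p under 0.05 (7.87% higher and 5.46% lower).

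OIP5-AS1 was spread over many isoform rows. Of its 22 rows, 8 reached the mean of 0.5 FPKM needed for testing, and 3 stayed under 0.01 FPKM in all 4 libraries. The effective number of isoforms, the inverse of the sum of squared shares, was 5.20 and 5.55 in the parental libraries, against 3.88 and 3.95 in the subline libraries. For NORAD it was 1.12 to 1.18. The effective number was not tested between the lines and was not computed for genes other than NORAD and OIP5-AS1. Some of the OIP5-AS1 isoform values behind it varied widely between libraries of the same line.

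OIP5-AS1:25 and OIP5-AS1:2 had the highest mean levels of the 22 rows. OIP5-AS1:25 had 10.6 and 5.47 FPKM in the parent and 12.5 and 6.31 FPKM in the subline. OIP5-AS1:2 had 7.04 and 5.84 FPKM in the parent and 12.2 and 4.44 FPKM in the subline. The lines overlapped for both isoforms. Their joint share was 51.0% and 49.8% in the parental libraries, against 66.5% and 51.2% in the subline libraries. The log2 differences were 0.21 (SE 0.53, limma adjusted p = 0.876) for OIP5-AS1:25 and 0.20 (SE 0.55, limma adjusted p = 0.890) for OIP5-AS1:2.

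OIP5-AS1:22 and OIP5-AS1:34 differed widely between libraries of the same line. OIP5-AS1:22 had 7.44 FPKM in parental library 1 and 0.000662 FPKM in parental library 2, and it had 6.75 and 0.163 FPKM in the subline libraries. Its share of the gene was 21.5% and 18.1% in the libraries numbered 1, and 0.00292% and 0.776% in those numbered 2. OIP5-AS1:34 had 1.10 and 3.39 FPKM in the parent and 1.58 and 7.11 FPKM in the subline. In both lines its share was lower in the library numbered 1, at 3.16% and 4.26%, than in the library numbered 2, at 14.9% and 33.9%. Their log2 differences between the lines were 0.14 (SE 1.84, limma adjusted p = 0.978) for OIP5-AS1:22 and 0.68 (SE 0.83, limma adjusted p = 0.727) for OIP5-AS1:34. For OIP5-AS1:22 the mean FPKM (3.72 in the parent and 3.46 in the subline) and the mean share (-1.27 percentage points) differed in the opposite direction to the log2 value. The leading isoform of the gene was not the same in all libraries: it was OIP5-AS1:25 in both libraries numbered 1, OIP5-AS1:2 in parental library 2 and OIP5-AS1:34 in subline library 2. A value near 0 may be an estimate that failed, and how far the split of reads between overlapping isoforms set these values was not tested.

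**Figure D4:**
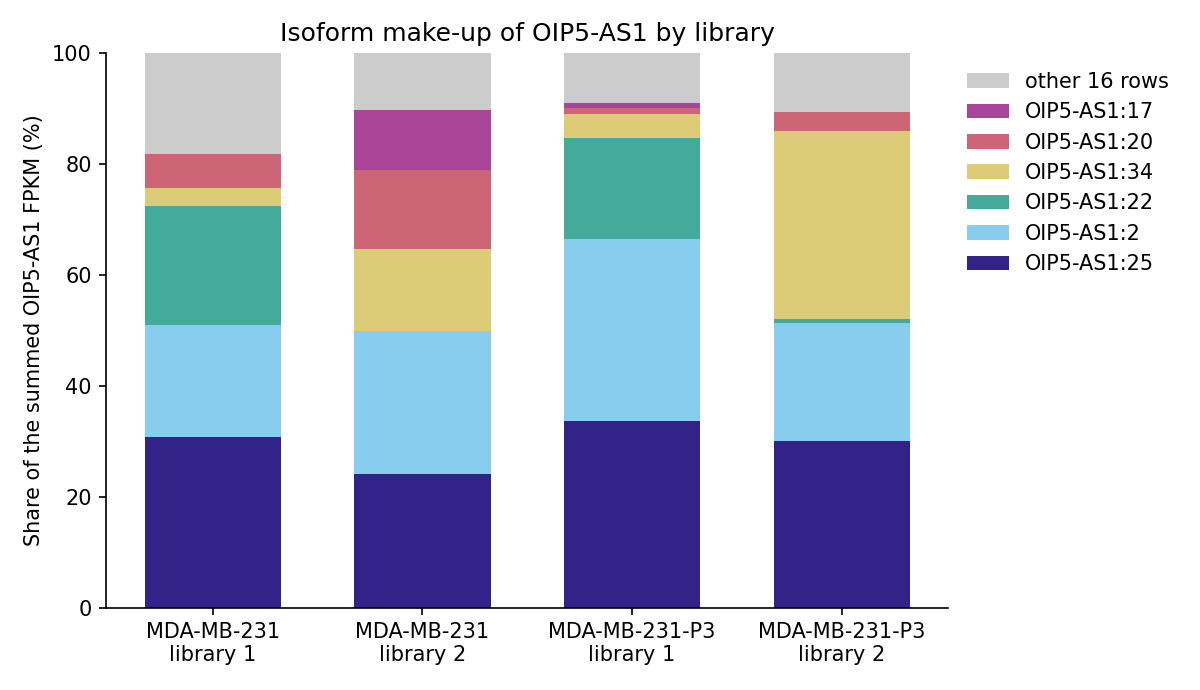
Share of the summed OIP5-AS1 FPKM (y axis, percent) held by each isoform in each library, for the isoforms with a mean share of at least 5% in either line, with the other 16 rows in grey. OIP5-AS1:22 is visible in the first library of each line, at 21.5% and 18.1%, and OIP5-AS1:34 is largest in the second subline library, at 33.9%.

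OIP5-AS1:20 was the 1 tested OIP5-AS1 isoform whose lines did not overlap. It had 2.11 and 3.23 FPKM in the parent and 0.438 and 0.721 FPKM in the subline, so both subline values lay below both parental ones. Of all tested isoforms, 20.7% lay below in this way. The means were 2.67 ± 0.792 FPKM (SD, n = 2) and 0.579 ± 0.200 FPKM (SD, n = 2), a log2 difference of -1.55 (SE 0.35, 95% interval -2.50 to -0.60). It did not pass over all isoforms (limma adjusted p = 0.308), and its unadjusted limma p was 0.0101, where 5.46% of isoforms had an unadjusted p under 0.05 and a lower level in the subline. Its share was 6.10% and 14.2% in the parent and 1.18% and 3.44% in the subline, with a limma adjusted p of 0.704 in the test of shares. The shares of OIP5-AS1:20, OIP5-AS1:31 and OIP5-AS1:33 were lower in both subline libraries than in both parental ones, an order found for 17.1% of tested shares, and 21% were higher in this way. Without single libraries its log2 difference was -1.80 to -1.29.

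The remaining 3 tested isoforms were low. OIP5-AS1:31 had 1.29 and 0.641 FPKM in the parent and 0.779 and 0.10 FPKM in the subline. OIP5-AS1:33 had 1.21 and 0.319 FPKM in the parent and 0.506 and 0.111 FPKM in the subline. OIP5-AS1:17 had 2.43 FPKM in parental library 2 and 0.330 FPKM in subline library 1, and was near 0 in the other 2 libraries. None passed the test, with limma adjusted p-values of 0.602, 0.673 and 0.706. The 14 untested rows had means of up to 0.481 FPKM and together made up 11.1% and 6.10% of the gene in the parental libraries, against 5.52% and 9.64% in the subline libraries. Among these 14 rows, both subline values lay above both parental ones in 3 and below them in 1. Of the tested isoforms, 27.3% lay above and 20.7% below in this way, and the share over untested rows was not counted.

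NORAD held a large part of a weighted count of Pumilio motif matches in the lncRNAs that could be matched to an annotated transcript. For the 3142 genes of the table whose name matched an annotated lncRNA, a product was formed. It was the summed FPKM of each gene times the matches in its longest transcript. The product is proportional to the motif copies present only if all isoforms of a gene hold the matches of that transcript. Isoform rows were not matched to transcripts, so this was not tested. The 3142 genes held 10.1% and 14.5% of all FPKM of the table in the parental libraries, against 17.6% and 15.1% in the subline libraries. Most of the table's FPKM is therefore outside this measure, and the part covered differed between libraries. NORAD held 29.3% and 23.0% of the total in the parental libraries, against 35.4% and 36.7% in the subline libraries. Its part of the summed FPKM of these genes was 0.387% and 0.151% in the parent. In the subline that part was 0.344% and 0.372%, so the lines overlapped. By the product NORAD ranked 1 in every library. The next gene was ZFAS1 in the parental libraries (12.0% and 15.3%) and OVCH1-AS1 in the subline libraries (15.4% and 15.3%). Both subline shares of the total lay above both parental shares, by a mean of 9.86 percentage points. Summed NORAD itself lay in this order, as did 28.9% of the 6444 tested genes. ZFAS1, part of the total, had 1102 and 1084 FPKM in the parent and 608 and 554 FPKM in the subline. How many other genes have this order by the product was not counted. The mean NORAD share was 26.2% ± 4.45 (SD, n = 2) in the parent and 36.0% ± 0.937 (SD, n = 2) in the subline.

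This share does not change with the scaling of a library, since it is a ratio within it, but its size depends on the transcripts chosen. With the mean number of matches over all annotated transcripts of a gene, the NORAD share was 53.9% and 41.4% in the parent and 59.0% and 57.5% in the subline. The measure was chosen after the levels were seen and leaves out mRNAs, which hold most Pumilio targets, and lncRNAs without a matching name.

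**Figure D5:**
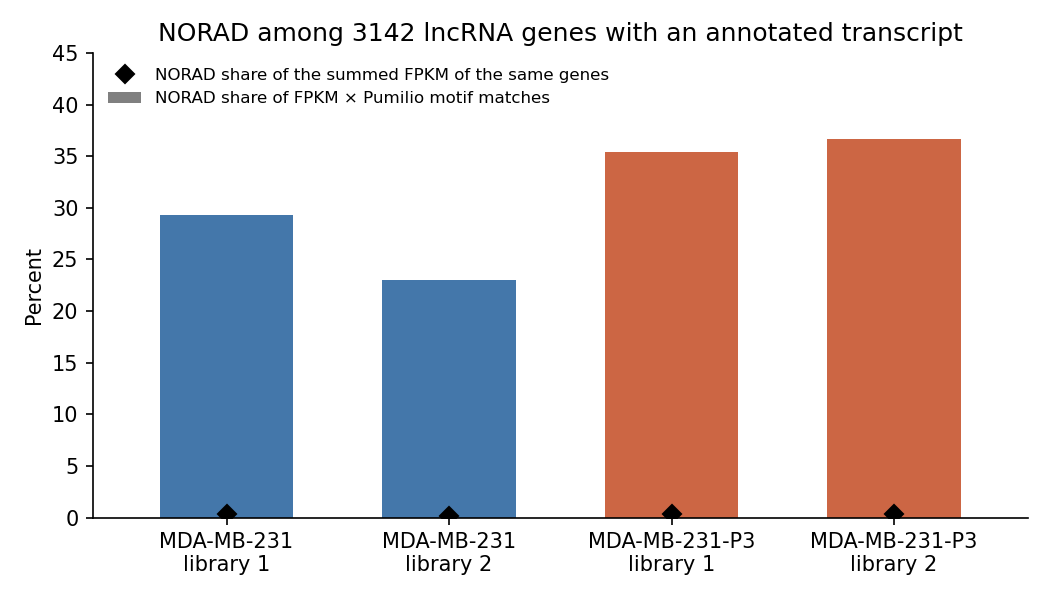
NORAD as a percentage of the summed FPKM times Pumilio motif matches of 3142 lncRNA genes (bars), and as a percentage of their summed FPKM alone (diamonds), in each library. The bars stand at 29.3% and 23.0% in MDA-MB-231 and 35.4% and 36.7% in MDA-MB-231-P3, and the diamonds lie under 0.4%.

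OIP5-AS1 held a small part of the miR-7 seed matches counted in the same way, at 2.79% and 1.90% in the parental libraries, against 3.97% and 2.31% in the subline libraries, and the lines overlapped. ZFAS1, with 1 seed match in its longest transcript of 4526 nt and a much higher level, held the largest part. It stood at 29.5% and 30.2% in the parent and 21.6% and 20.4% in the subline. A seed match counts the same here as the longer OIP5-AS1 site. The matches of the longest transcript were again applied to all isoform rows, 22 for OIP5-AS1 and 18 for ZFAS1. Of the 72 annotated OIP5-AS1 transcripts, 31 have a seed match. These parts were not recomputed with the mean over all annotated transcripts, so their size and the order of the genes by them are uncertain.

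Other lncRNAs of related roles were described from lists chosen with earlier results of these data known. Of 9 tested lncRNAs listed as cytoplasmic binders of proteins or microRNAs, 2 had a positive and 7 a negative log2 difference. Their median was -0.44, where the median of all tested genes was 0.09. The list was set by reported roles, and the place of these RNAs in the cell was not measured. None of the 9 passed (limma, smallest adjusted p = 0.284). An unadjusted p under 0.05 was found for 3 of them, against 9.5% of all tested genes in the higher and 5.68% in the lower direction. Both subline libraries lay above both parental ones for 2 of the 9 and below them for 7, where 21.4% of all tested genes lay below. NORAD, at 0.59, and OIP5-AS1, at -0.01, both lay above this median. The 4 most abundant were GAS5, which hosts small nucleolar RNAs and binds the glucocorticoid receptor, SNHG5 and ZFAS1, which also host small nucleolar RNAs, and CYTOR. GAS5 had 1073 and 932 FPKM in the parent, against 1132 and 1207 FPKM in the subline. SNHG5 had 1294 and 1010 FPKM in the parent and 934 and 945 FPKM in the subline. ZFAS1 had 1102 and 1084 FPKM in the parent, against 608 and 554 FPKM in the subline, and CYTOR had 700.1 and 477 FPKM, against 311 and 305 FPKM. The log2 differences were 0.22 for GAS5, -0.28 for SNHG5, -0.91 for ZFAS1 and -0.90 for CYTOR, whose values are uncertain because it shares near-identical sequence with MIR4435-2HG. TUG1, the second of the 2 members with a positive difference, had 21.1 and 14.2 FPKM in the parent and 30.4 and 33.2 FPKM in the subline, with a limma adjusted p of 0.322.

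Of 6 tested nuclear-retained lncRNAs, 4 had a positive and 2 a negative difference, where 54.7% of all tested genes were positive. Their median was 0.45 and 0 were called (limma, smallest adjusted p = 0.282). An unadjusted p under 0.05 was found for 1 of the 6, beside 9.5% (higher) and 5.68% (lower) of all tested genes. Log2 differences of the 4 most abundant were 1.11 for MALAT1, 0.25 for NEAT1, -0.24 for PVT1 and -0.52 for FIRRE, a lncRNA that anchors chromosomes in the nucleus. MALAT1 had 717 and 952 FPKM in the parent, against 1982 and 1616 FPKM in the subline. NEAT1 had 141 and 99.8 FPKM, against 171 and 116 FPKM, and PVT1 had 58.4 and 50.4 FPKM, against 53.3 and 39.7 FPKM. FIRRE had 43.4 and 46.0 FPKM in the parent and 32.4 and 29.8 FPKM in the subline. The libraries were made from the mRNA fraction, and how fully it captured each of these RNAs was not tested.

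Among lncRNAs linked to genome stability, the role for which NORAD is named, 3 of 6 listed genes were tested and 0 called (limma, smallest adjusted p = 0.345, 0 at an unadjusted p under 0.05). LINC-PINT, a p53-induced lncRNA, had 28.1 and 18.5 FPKM in the parent and 40.8 and 35.2 FPKM in the subline, and its log2 difference was 0.72. TP53TG1, another p53 target, had 5.26 and 4.48 FPKM in the parent and 3.49 and 3.65 FPKM in the subline, and its log2 difference was -0.40. LINP1, a scaffold for DNA end joining, had 1.23 and 0.688 FPKM in the parent and 0.204 and 0.232 FPKM in the subline, and its log2 difference was -0.998 (limma adjusted p = 0.345). PANDAR was at or under 0.125 FPKM in all 4 libraries.

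Of the miR-7 network, LINC00632, the precursor of the miR-7-binding circular RNA CDR1as, had 0.0495 FPKM in parental library 1, was near 0 in parental library 2, and had 1.18 and 0.249 FPKM in the subline libraries. MIR7-3HG, a host of a miR-7 gene, was near 0 in both libraries numbered 1, with 0.0668 FPKM in parental library 2 and 0.139 FPKM in subline library 2. Both stayed under the mean of 0.5 FPKM needed for testing, and the circular RNA and the mature miR-7 were not analysed here.

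The genes whose profile over the 4 libraries was most like each member were named by a fixed measure, the Euclidean distance of mean-centred log2(FPKM + 0.5) among the 613 genes with a mean of at least 10 FPKM. Nearest to NORAD were lnc-LHFPL6-9 (distance 0.18), lnc-B3GNT5-11 (0.19) and LINC-PINT (0.21). Nearest to OIP5-AS1 were NUTM2A-AS1 (0.17), lnc-RRN3-3 (0.22) and lnc-PLGLB2-3 (0.24). NUTM2A-AS1 had 34.6 and 24.99 FPKM in the parent and 34.6 and 20.8 FPKM in the subline, with the same higher first library in each line. NORAD stood at rank 153 in likeness to OIP5-AS1 (distance 0.82). With 4 libraries such likeness is a description only.

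The rows named for coding genes near the 2 loci were low. Within 100 kb of NORAD, the rows named for SCAND1, CNBD2 and EPB41L1 included 2 that were tested. Of these, lnc-SCAND1-9 had 0.319 and 1.88 FPKM in the parent and 0.255 and 0.265 FPKM in the subline, with a limma adjusted p of 0.537. The other, lnc-EPB41L1-2, had 0.462 and 0.525 FPKM in the parent and 0.566 and 0.576 FPKM in the subline, with a limma adjusted p of 0.894. Within 100 kb of OIP5-AS1, the rows named for EXD1, CHP1, OIP5 and NDUFAF1 all stayed too low for testing, and lnc-OIP5-3 had the highest mean of them, with values of 0.414 and 0.0105 FPKM in the parent and 0.279 and 0.282 FPKM in the subline. Names of the form lnc-OIP5-3 give a neighbouring gene and not a measured position. Another 4 annotated lncRNA genes within 100 kb of NORAD and 1 near OIP5-AS1 matched no row by name and were not analysed here.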

How the data were processed

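Per the labels' protocols, strand-specific paired-end libraries of 150 bases were made from the mRNA fraction. By the same protocols the authors aligned reads to hg19 with HISAT2 and normalized counts to FPKM, deposited per lncRNA isoform. The submitters' processing notes also name StringTie, without a version, and the lncRNA annotation is not stated. The per-sample files and the series table held the same values in all 104786 rows. Isoform rows were summed per gene name. Genes or isoforms with a mean of at least 0.5 FPKM entered limma 3.58.1 (R 4.3.3) as log2(FPKM + 0.5) values (eBayes with an intensity trend, two-sided, no block, Benjamini-Hochberg over all features tested, threshold 0.05). Shares of isoforms within genes that had at least 2 such isoforms were tested on the arcsine of their square root, with eBayes and no trend. Intervals are 95% intervals of the moderated fit. No counts were used, so depth per library and counting error are unknown. GENCODE release 44, lifted to GRCh37, gave positions and transcripts. The miR-7 sequence came from RefSeq (table build GRCh38.p14), and edits were counted with edlib 1.3.9.post1 in Python 3.11.15. The members and lists were chosen with earlier results of these data known. Named were all tested isoforms of both genes, the 4 most abundant tested members of each list, the 3 genes nearest in profile, and neighbours within 100 kb. TUG1, PANDAR and OVCH1-AS1 were named after their values were seen. Alternatives comprised a pseudocount of 0.1 or 1, a filter at 1 FPKM or none, normalization by quantiles, centring, a common sum, no trend, untransformed shares, the replicate number as a block, and leaving out each library.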

Additional observations from a re-analysis of the deposited data

How the results depend on the processing

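Summed NORAD had a positive difference in every setting tried and was called in none (0.23 to 0.95 without single libraries, 1.00 rescaled to a common sum). OIP5-AS1 summed turned to 0.034 with quantile normalization, 0.40 rescaled to a common sum, and -0.41 to 0.40 without single libraries. Of all summed genes 4 were called, against 2 with quantile normalization and 0 with a pseudocount of 1, no filter, no trend, or without any single library. Isoforms called rose from 0 to 6 with a minimum of 1 FPKM, and isoform shares called rose from 0 to 196 without a filter. Without single libraries, log2 differences that changed sign were those of OIP5-AS1:17 (-2.19 to 0.36), OIP5-AS1:2 (-0.48 to 0.88), OIP5-AS1:22 (-1.86 to 2.13, and -0.099 with quantile normalization), OIP5-AS1:25 (-0.26 to 0.68) and OIP5-AS1:34 (-0.26 to 1.61). Shares that changed sign, in percentage points, were those of NORAD:6 (-0.82 to 1.70), NORAD:7 (-1.70 to 0.82), OIP5-AS1:17 (-10.3 to 0.44), OIP5-AS1:2 (-1.85 to 9.80), OIP5-AS1:22 (-12.0 to 9.46) and OIP5-AS1:34 (-4.77 to 24.9). For all of these the cause was not tested. When a library is left out, the remaining one is assumed to vary as the other line does. The NORAD share of FPKM times Pumilio motif matches differed by 6.71 to 13.0 points without single libraries, settings chosen after seeing the data. The share test had no intensity trend to leave out.

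With the replicate number as a block, 0 summed genes, 0 isoforms and 0 shares were called, and NORAD (0.59, limma adjusted p = 0.460) and OIP5-AS1 (limma adjusted p = 0.993) stayed uncalled. The labels do not say that a number pairs libraries. Deviations of same-numbered libraries correlated at 0.08 over summed genes and 0.05 over isoforms.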
